A study of Mus musculus with 583 samples.

Results

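The cells described here are the 130 cells prepared as Smart-seq / C1, of 583 cells in the deposited count table, taken by the method name that begins their column. They fall into library A (69 cells) and library B (61 cells). All were J1 cells, a mouse embryonic stem cell line, grown like every other cell of the study in 2i/LIF medium, in which an inhibitor of MEK, an inhibitor of GSK3 and the cytokine LIF keep such cells naive. Single cells were caught in the chambers of the Fluidigm C1, a microfluidic chip on which the cells are lysed and their RNA is copied into full-length cDNA. The study set 6 single-cell RNA-seq methods side by side, and the other cells were prepared with Smart-seq2, CEL-seq2, MARS-seq, SCRB-seq or Drop-seq. Libraries A and B exist for each method, and no label says that the letters stand for separate cultures, so differences and p-values over libraries measure a spread that may be technical.

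Naive stem cells express Pou5f1, Sox2 and Nanog, the core factors of pluripotency, together with factors such as Zfp42, Esrrb and Klf4, and they cycle rapidly. Immediate early genes, such as Fos, Egr1 and Ier2, are transcribed within minutes of a signal or a stress without new protein synthesis, mostly downstream of ERK through serum response factor and of CREB, and the MEK inhibitor in this medium acts on that route. Other gene groups that move together in single cells are the cell cycle genes, the p53 targets and the chaperones of the unfolded protein response, which load the endoplasmic reticulum with folding enzymes.

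The chaperone genes covaried in both libraries, and the sequences upstream of their start sites are shown first because the covariation below is described beside them. The endoplasmic reticulum stress element, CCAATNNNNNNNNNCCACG read on either strand, was searched in RefSeq promoters (GRCm38.p6) from 250 bases before to 50 bases after each gene's start. It was found in 7 of 16 promoters of the unfolded protein response list (43.8%) and in 39 of 32851 promoters of all genes (0.119%). The 4 promoters below lie at chr2:34771840-34772089 (plus strand) for Hspa5, the chaperone BiP, at chr10:86705445-86705694 (minus strand) for Hsp90b1, which encodes GRP94, at chr11:50325674-50325923 (minus strand) for Canx, the lectin chaperone calnexin, and at chr12:17266339-17266588 (plus strand) for the disulfide isomerase Pdia6. Each run is the 250 bases before the start, 5′ to 3′ on the strand of the gene, and capitals mark the element.
Hspa5: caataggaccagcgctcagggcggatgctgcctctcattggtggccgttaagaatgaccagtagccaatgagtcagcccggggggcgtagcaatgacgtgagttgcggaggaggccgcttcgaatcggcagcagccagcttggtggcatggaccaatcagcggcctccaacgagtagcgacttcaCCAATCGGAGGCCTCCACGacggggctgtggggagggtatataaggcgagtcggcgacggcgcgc
Hsp90b1: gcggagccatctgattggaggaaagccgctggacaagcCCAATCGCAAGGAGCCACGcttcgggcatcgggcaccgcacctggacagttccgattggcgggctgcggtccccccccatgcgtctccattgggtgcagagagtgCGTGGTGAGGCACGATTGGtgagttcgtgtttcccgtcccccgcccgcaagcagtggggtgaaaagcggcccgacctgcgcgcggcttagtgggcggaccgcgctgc
Canx: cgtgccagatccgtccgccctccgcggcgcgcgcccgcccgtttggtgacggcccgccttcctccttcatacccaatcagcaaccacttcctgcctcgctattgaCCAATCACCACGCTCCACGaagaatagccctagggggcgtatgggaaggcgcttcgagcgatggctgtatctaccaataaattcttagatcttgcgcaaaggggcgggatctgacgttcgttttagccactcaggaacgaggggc
Pdia6: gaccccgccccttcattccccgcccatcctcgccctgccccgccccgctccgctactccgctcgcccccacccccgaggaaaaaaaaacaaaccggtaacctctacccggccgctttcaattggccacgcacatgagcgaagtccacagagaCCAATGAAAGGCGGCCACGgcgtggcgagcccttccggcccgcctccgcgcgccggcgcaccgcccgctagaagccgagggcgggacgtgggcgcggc

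The first base of the element lay 65 bases before the start of Hspa5, 145 before that of Canx and 98 before that of Pdia6. Hsp90b1 held the element at 212 and at 107 bases before its start. The other 3 genes with a match were Calr (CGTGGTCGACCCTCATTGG, on the reverse strand), Dnajc3 (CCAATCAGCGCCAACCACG) and Creld2 (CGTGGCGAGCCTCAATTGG, on the reverse strand). A match is a description of the letters and was not tested as a binding site.

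Of the immediate early list, 4 of 32 genes with a promoter in the table held the cyclic AMP response element TGACGTCA (Btg2, Dusp1, Maff and Ppp1r15a), which made 4 of 42 promoters (9.52%) against 1.79% of all promoters. Serum response elements, searched as the CArG box, were found in 7 of the list's 42 promoters (16.7%) against 1.63% of all. These promoters belonged to 4 of the 32 genes, Dusp5, Egr2, Srf and Zfp36. Members of the list without a RefSeq promoter were not searched for either element. The promoters of Dusp1, a phosphatase that switches off MAP kinases (chr17:26508473-26508722, minus strand), and of Btg2, an antiproliferative gene (chr1:134079156-134079405, minus strand), are shown as examples of genes whose values are given below, with TGACGTCA in capitals.
Dusp1: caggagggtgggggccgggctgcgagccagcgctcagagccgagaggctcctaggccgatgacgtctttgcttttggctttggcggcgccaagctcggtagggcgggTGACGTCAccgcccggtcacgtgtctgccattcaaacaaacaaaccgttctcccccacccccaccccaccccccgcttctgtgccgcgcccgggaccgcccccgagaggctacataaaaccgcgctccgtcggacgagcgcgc
Btg2: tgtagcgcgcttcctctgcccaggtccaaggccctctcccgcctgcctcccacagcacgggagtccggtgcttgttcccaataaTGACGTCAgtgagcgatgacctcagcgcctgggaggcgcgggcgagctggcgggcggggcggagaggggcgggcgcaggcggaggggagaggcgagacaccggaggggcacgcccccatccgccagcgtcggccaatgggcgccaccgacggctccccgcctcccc

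The cells carried the markers of their label. The summed level of 11 naive markers, in CPM (the reads of a gene per 1000000 mouse gene reads of the cell), had a lowest, median and highest cell of 4133, 6078 and 8476 in library A and of 3528, 6046 and 8440 in library B, and all 11 markers were read in both. The libraries overlapped over nearly their whole range. Primed markers had a median of 190 CPM in A and 74.6 CPM in B, mostly from Dnmt3b. Over the summed reads of a library, Dnmt3b made 214 of their 238 CPM in A and 107 of 155 CPM in B. Of the other primed markers, Pou3f1 was higher in A (0.863 and 0.227 CPM), while Fgf5 and Otx2 were higher in B. Fgf5, which defines the primed state, was at 0 in A and had 71 reads in 3 cells of B. Otx2 was read in 33.3% of A cells and 68.9% of B cells, at 23.2 and 44.4 CPM over the library. Primitive endoderm, mesendoderm, neural and fibroblast markers each had a median cell at 0 in both libraries. Trophectoderm markers had a median of 3.65 CPM in A and 3.11 CPM in B, with Eomes read in 20 and 27 cells and Gata3 in 31 and 15. Mixl1, of the mesendoderm list, was read in 17 and 21 cells, and Dab2, of the primitive endoderm list, in 3 and 16. Sox17, Foxa2, Hand1, Mesp1, Col3a1 and Postn, of the same lists and of the fibroblast list, were at 0 in both libraries.

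Library A held 171583, 318324 and 355508 reads in its lowest, median and highest cell, and library B held 30424, 323536 and 366539. Genes with a read numbered 6312, 7625 and 9669 in A and 5283, 7342 and 8573 in B. The libraries stood apart in the share of reads from ERCC spike-in RNA, which is added to the cells. Its median was 14.3% in A (5.39% to 28.6%) and 3.31% in B (1.66% to 6.56% without the well at row H, column 6, where it was 82.0%). Whether A and B received the same amount of spike-in RNA was not tested. Between cells, more spike-in went with fewer genes, with a Spearman correlation of -0.785 in A and -0.747 in B. No cell profile occurred in both libraries, although 41 plate positions did. Results that rest on B are given with the high spike-in cell, and the number of most variable genes in both libraries was 75 with it and 73 without.

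Cell-to-cell variation was measured as excess variation, the log2 squared coefficient of variation (CV) of a gene's CPM across the cells of a library less the value the trend of all genes gives at the same mean. A value of 1 is a doubling of the squared CV over the trend. It was taken for 8486 genes in A and 7802 in B, those with a mean of at least 10 CPM and a read in at least 10% of cells, and 7276 genes were measured in both. Across these genes the excess in A and in B had a Spearman correlation of 0.575, a description over genes, which are not independent. Of the 364 genes in the top 5% of each library, 75 were in the top 5% of both, 20.6% of each library's set and 1.03% of all genes measured. A and B share the method and the cell line, so this overlap may hold features of the method as well as of the cells. The 92 spike-ins carry no cell biology. Those measured had a median excess of -0.74 in A, with 37 of 50 below the trend of the genes. In B it was 0.27, with 21 of 47 below the trend (median 0.19 without the high spike-in cell). Both B values used a spike-in scale averaged over all B cells, which the high spike-in cell raised. The B spike-ins were thus set against the trend at too high a mean, and their excess is not comparable with that in A.

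**Figure D1:**
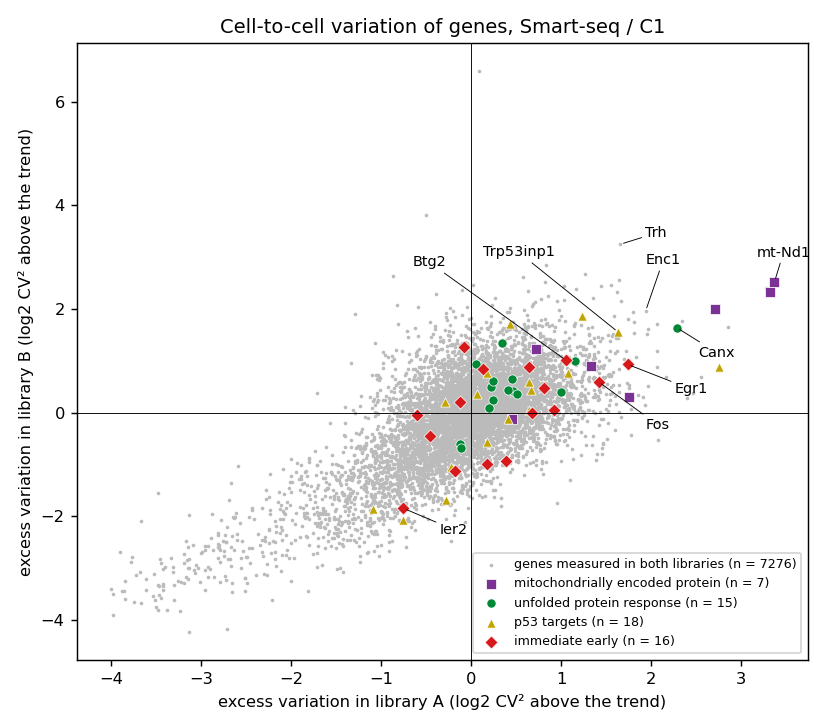
Excess variation of 7276 genes in library A (x axis) and library B (y axis), as log2 squared coefficient of variation above the trend. Each grey point is 1 gene, and colours mark the mitochondrial protein, unfolded protein response, p53 target and immediate early lists. Mitochondrial transcripts and Canx lie at the upper right, as does Malat1, an unlabelled grey point. Mdm2, an unlabelled point of the p53 targets, lies high in A (2.75) and lower in B (0.89).

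The 6 core and naive factors lay below the trend in A, with an excess of -1.15 to -0.39, and on both sides of it in B, with -1.80 to 0.58. Zfp42, a marker of the naive state, ranged from 447 to 1836 CPM in A (mean 991) and from 190 to 3008 CPM in B (mean 1386). Nanog ranged from 112 to 795 CPM in A and from 32.5 to 1748 CPM in B, with means of 411 and 431 CPM. The B cells spread more widely around nearly the same mean. Mean CPM in A and B was 40.8 and 36.8 for Pou5f1, 173 and 64.9 for Sox2, 402 and 178 for Esrrb and 198 and 91.3 for Klf4. Sox2, Esrrb and Klf4 were thus more than 2 times higher in A, while their cell ranges overlapped. Pou5f1, Zfp42 and Nanog share 22.7%, 14.1% and 10.96% of their 31-base sequences with other transcripts. Reads of these genes may have been split, so their levels are uncertain and cannot be ranked against those of other factors.

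Mitochondrial transcripts led the genes most variable in both libraries, with mt-Nd1, a subunit of respiratory complex I, from 4832 to 31535 CPM per cell in A and from 3265 to 27145 CPM in B, and an excess of 3.37 and 2.53. mt-Rnr2, the large ribosomal RNA of the mitochondrion, had an excess of 3.28 and 2.4, and mt-Cytb of complex III had 3.32 and 2.34. Of 13 mitochondrial protein genes 7 were measured, and 6 of those lay above the trend in both, against 34.5% of all genes measured. Most of the remaining mitochondrial protein genes had no read, and mt-Co1 shares 63.9% of its 31-base sequences with other transcripts, so its reads may have been split.

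Long nuclear RNAs and imprinted genes were also spread widely. Malat1, a nuclear noncoding RNA, ranged from 2095 to 14732 CPM in A and from 567 to 6712 CPM in B, with an excess of 2.86 and 1.66. Rian, a maternally expressed noncoding RNA of the Dlk1-Meg3 locus, reached 1709 CPM in A and 1224 CPM in B, with an excess of 1.97 and 1.62. Impact, an imprinted gene that restrains the kinase GCN2, had an excess of 1.35 and 2.22. In both libraries 6 of 7 measured genes of the nuclear RNA list and 7 of 8 of the imprinted list were above the trend. The share over all genes measured was 34.5%.

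A second set held signalling and secreted factors. Trh, the precursor of thyrotropin-releasing hormone, had a median cell of 309 CPM and a highest cell of 1802 CPM in A, and of 188 and 3867 CPM in B, with an excess of 1.66 and 3.25. Enc1, an actin-binding protein, had a median of 376 CPM in A and 1698 CPM in B, with highest cells of 1877 and 5489 CPM. Fstl1, a secreted glycoprotein, reached 1567 CPM in A and 3992 CPM in B. The excess of Enc1 was 1.94 and 1.96 and that of Fstl1 was 1.80 and 1.94, so both had like excess in libraries whose means (456 and 1822 CPM, 276 and 836 CPM) differed over 3-fold. Sdc4, a heparan sulfate proteoglycan of the cell surface, had means of 331 and 304 CPM and an excess of 2.35 and 1.76.

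Some of the 20 most variable genes were on in a minority of cells. Smarca1, a chromatin remodeller, was read in 22 cells of A and 24 of B and reached 493 and 455 CPM. Bhlhe41, a transcriptional repressor of the clock, was read in 15 and 13 cells and reached 309 and 436 CPM. Rhox5, an X-linked homeobox gene, was read in 27 and 23 cells and reached 504 and 768 CPM. Their means of 10.1 to 40.3 CPM therefore described few cells. Otx2, a factor of the primed state outside the top 20, was read in 23 cells of A and 42 of B, with an excess of 1.83 and 1.07.

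The amino acid transporters Slc38a2 and Slc7a3 were in the top 5% of both libraries. Slc38a2 ranged from 51.1 to 2878 CPM in A and from 175 to 4338 CPM in B, with an excess of 1.95 and 1.52, and Slc7a3 had 1.41 and 1.18. Both are targets of ATF4, the factor of the amino acid response. Of the 17 measured genes of that list 4 lay above the trend in both libraries, against 34.5% of all genes measured. Tdgf1, the Nodal co-receptor Cripto, ranged from 169 to 2333 CPM in A and from 57.0 to 2342 CPM in B, and its excess was 1.05 and 1.27. Lefty2, a Nodal antagonist, had 0.82 and 1.35, and Tet2, which oxidises methylcytosine, had 0.89 and 1.29.

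The lists differed in how many members lay above the trend in both libraries. The share was 13 of 15 for the unfolded protein response (86.7%; median excess 0.34 in A and 0.45 in B) and 11 of 18 for p53 targets (61.1%; 0.42 and 0.40), against 34.5% and medians of 0.00 and -0.01 for all genes measured. It was 27 of 54 for G2/M genes, 18 of 42 for G1/S genes and 17 of 35 for naive and core pluripotency genes. It was lower than over all genes for heat shock genes, with 1 of 11. BMP targets, with 1 of 6, the ATF4 list, with 4 of 17, and MEK-ERK feedback genes, with 2 of 7, were also lower. These lists are too small to be set apart from all genes. Glycolysis and hypoxia genes, with 7 of 21, and the actin and serum response list, with 5 of 16, were near the share of all genes.

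Every cell held reads of some immediate early genes, and their levels were uneven. Of 42 genes in the list, 22 reached a mean of 10 CPM in at least 1 library and 16 were measured for variation in both. Of these, 7 of 16 (43.8%) lay above the trend in both libraries, against 34.5% of all genes measured. None was in the top 5% of both, which held 1.03% of all genes measured. A cell held reads from a median of 19 genes of the list in A (9 to 26) and 17 in B (9 to 24). The summed level of the list had a lowest, median and highest cell of 778, 1668 and 4224 CPM in A and of 354, 1136 and 2334 CPM in B. Without Egr1 the medians were 1227 and 1043 CPM, a smaller gap between the libraries.

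Egr1, a zinc finger transcription factor, differed most between the libraries among the 22 members at 10 CPM or more. Its level over the summed reads of the library was 533 CPM in A (exact Poisson 95% interval 522 to 544) and 74.7 CPM in B (70.7 to 78.8), 7.13-fold higher in A. It was read in 67 of 69 cells of A (97.1%, Clopper-Pearson 95% interval 89.9% to 99.6%) and in 43 of 61 cells of B (70.5%, 57.4% to 81.5%). These intervals cover counting error only. The median cell had 404 CPM in A and 9.54 CPM in B, and the quartiles were 201 and 812 CPM in A and 0 and 108 CPM in B. The cells overlapped, since the highest B cell had 544 CPM, but most A cells lay above most B cells. After each cell was thinned to 50000 reads, which left out 2 shallow B cells, Egr1 was read in 97.1% of A cells and 45.8% of B cells.

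In B, Egr1 reads were gathered in fewer cells. The 5 highest cells held 43.8% of the Egr1 reads of B and 21.2% of those of A. The excess variation was 1.74 in A and 0.93 in B. The median per plate row ran from 309 to 587 CPM in A and from 3.14 to 143 CPM in B, and the median per plate column from 301 to 613 CPM in A and from 0 to 335 CPM in B. The rows of the libraries did not overlap, while the columns did.

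Fos, the AP-1 subunit, was read in a minority of cells of both libraries. It was read in 28 cells of A and 16 of B, with highest cells of 401 and 231 CPM, and the 5 highest cells held 68.6% and 72.7% of its reads. Its summed level was 27.8 CPM in A (25.5 to 30.4) and 12.9 CPM in B (11.3 to 14.7). Its excess was 1.42 and 0.60. After thinning, Fos was read in 23.2% and 20.3% of cells.

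Dusp1 and Ier2 were broader. Dusp1 was read in 52 cells of A and 34 of B, with a median cell of 44.2 and 3.47 CPM, a highest cell of 607 and 398 CPM, and a summed level of 99 CPM in A (94.5 to 104) and 45.9 CPM in B (42.8 to 49.2). Ier2, a nuclear immediate early protein, was read in 65 and 45 cells, with median cells of 45.6 and 9.32 CPM and summed levels of 58.7 CPM in A (55.2 to 62.2) and 16.3 CPM in B (14.5 to 18.3). Ier2 varied less than the trend, with an excess of -0.75 in A and -1.84 in B, whereas that of Dusp1 was 0.81 and 0.48.

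**Figure D2:**
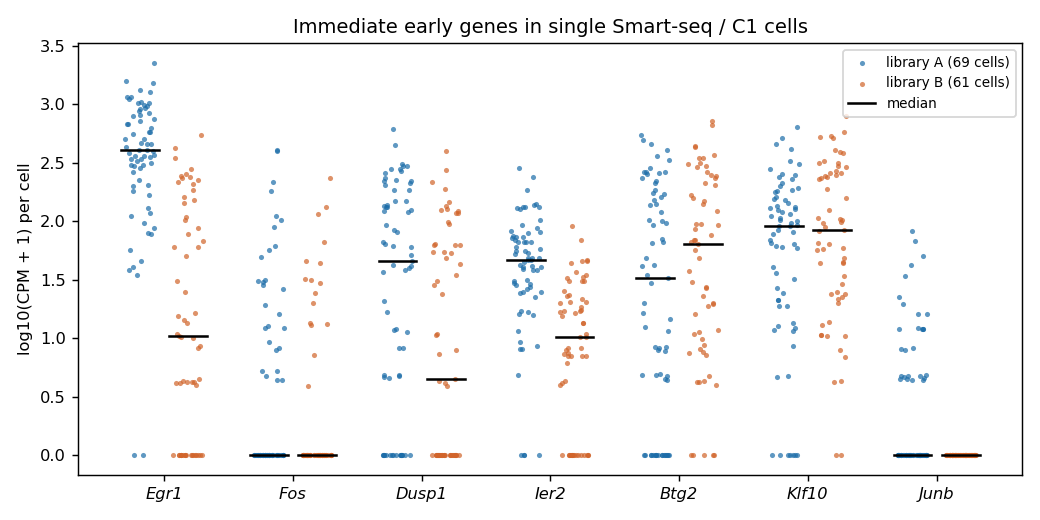
Level of Egr1, Fos, Dusp1, Ier2, Btg2, Klf10 and Junb in every cell of libraries A and B, as log10(CPM + 1), each point 1 cell and each bar the library median. The Egr1 medians are 404 CPM in A and 9.54 CPM in B, most Fos cells lie at 0 in both libraries, and every B cell has 0 for Junb.

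Several other members were higher in B by less than 2-fold. Btg2 had summed levels of 101 and 129 CPM in A and B and was read in 52 and 56 cells. Klf10, a Krüppel-like repressor, had 121 and 152 CPM, and Klf6, of the same family, had 59.4 and 113 CPM. Btg1, a relative of Btg2, had 156 and 165 CPM. Mcl1, a survival protein of the BCL2 family, was read in all cells and was higher in A, at 223 and 144 CPM. Dusp6, a phosphatase that acts on ERK, had 27.5 and 58.3 CPM, 2.12-fold higher in B. The libraries did not differ in 1 direction, and of the 22 members at 10 CPM or more in either library, 8 were at least 2-fold higher in A, 1 was at least 2-fold higher in B, and 12 were higher in A by any amount. On the scale used for all genes below (20 CPM or more in either library, ratio of CPM plus 1), 6 of 17 members were at least 2-fold higher in A and 1 in B, against 17.7% and 8.71% of all genes.

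The AP-1 partners were low. Junb had 116 reads in 27 cells of A and none in B, at least 36.8-fold higher in A with B set at 3 reads over the library. Jund was read in 44 cells of A (5.34 CPM) and in 3 of B (0.170 CPM). Jun had 1.46 and 1.53 CPM and Fosb had 3.40 and 1.64 CPM. Egr3 had no read in either library. Ccn1, a matricellular target of serum response factor, had 38.7 and 9.93 CPM, and its relative Ccn2 had 42.4 and 66.4 CPM. Arc had 12.9 and 3.40 CPM and Myc had 32.2 and 23.0 CPM.

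Across the cells of a library the immediate early genes hardly moved together. Over the 13 members with at least 20 CPM and reads in at least 30% of cells of both libraries, the mean Spearman correlation of the 78 pairs was 0.0214 in A and 0.0153 in B, against 0.0119 and 0.0141 for all pairs of genes. A total of 26 pairs (33.3%) were above 0 in both libraries, against 29.4% of all pairs, and none was above 0.3 in both. Egr1 and Klf6 had 0.188 in A and 0.170 in B, and Btg1 and Nfkbia, the NF-kappaB inhibitor, had 0.166 and 0.192. Other pairs changed with the library, such as Dusp1 with Btg1 (0.378 and -0.036), Egr1 with Nfkbia (-0.290 and 0.177) and Mcl1 with Ccn2 (-0.129 and 0.313). These are descriptions over 69 and 61 cells that share a library, and in sparse counts values of this size are no finding. The summed level of the list had a Spearman correlation with the spike-in share of 0.362 in A and 0.0856 in B, and the part of spike-in share in the level was not tested.

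Against the other methods, Smart-seq / C1 was high in some immediate early genes and low in others, at about the shares of all genes. Counts were summed per library and tested over 14293 genes with edgeR's quasi-likelihood test, with Benjamini-Hochberg adjustment over all genes. Of 34 members tested, 9 were higher (Egr1, Fos, Dusp1, Dusp6, Btg1, Btg2, Klf6, Klf10 and Ccn2) and 6 were lower (Jund, Ier2, Zfp36l1, Gadd45b, Sik1 and Nfkbia) than the average of the 5 other methods. The background was 23.6% of all genes higher and 21% lower, and the list's counts lay near these shares. The list's median difference was -0.32 on the log2 scale, against 0.14 for all genes. Against Smart-seq2, the other method counted in reads, 3 members were higher (Egr1, Btg1 and Btg2) and 3 lower (Ier2, Nr4a1 and Nfkbia). The shares over all genes were 8.75% and 6.81%, near those of the list.

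Beside the 533 and 74.7 CPM of Egr1 here, A and B of Drop-seq gave 10.8 and 27.4 CPM, SCRB-seq 1.31 and 1.39, MARS-seq 0 and 1.05, CEL-seq2 42.9 and 11.1, and Smart-seq2 1.26 and 2.21. Both Smart-seq / C1 libraries lay above all the others. The difference was 6.21 ± 0.50 (log2, SE) from the 5 methods (edgeR adjusted p = 1.2e-07) and 7.5 ± 0.89 from Smart-seq2 (edgeR adjusted p = 0.00011), with 2 libraries a method. Without library A, the difference was 4.60 from the 5 methods and 5.75 from Smart-seq2 and passed the test in both. CEL-seq2, the other method run on the C1, came next with its A library.

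Fos had 27.8 and 12.9 CPM here, while Drop-seq gave 2.17 and 8.57, MARS-seq 3.0 and 3.15, CEL-seq2 53.4 and 4.67, Smart-seq2 6.95 and 3.30, and both SCRB-seq libraries were listed at 0. CEL-seq2 A was higher than both Smart-seq / C1 libraries. The difference from the 5 methods was 3.33 ± 0.82 (edgeR adjusted p = 0.00346), and from Smart-seq2 it was 2.15 ± 0.90 (edgeR adjusted p = 0.118). With limma on the mean of log2(CPM + 1) over cells the first was 0.77 and did not pass.

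Dusp1 had 99 and 45.9 CPM here, inside the range of the others, which reached 88.8 and 110 in Smart-seq2. It passed narrowly (1.1 ± 0.42, edgeR adjusted p = 0.0413) and did not pass with DESeq2 (1.01), with limma on log2(CPM + 1) (0.63), or without library A (0.79), CEL-seq2 B (1.02) or SCRB-seq B (1.03). Ier2 went the other way, with 58.7 and 16.3 CPM here against 74.8 and 271 for Drop-seq, 124 and 90.4 for SCRB-seq, 104 and 105 for MARS-seq, 45.3 and 116 for CEL-seq2, and 287 and 253 for Smart-seq2. Its difference was -1.94 ± 0.48 (edgeR adjusted p = 0.004), which did not pass without library B (-1.26), and -2.74 ± 0.57 from Smart-seq2 (edgeR adjusted p = 0.00413).

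**Figure D3:**
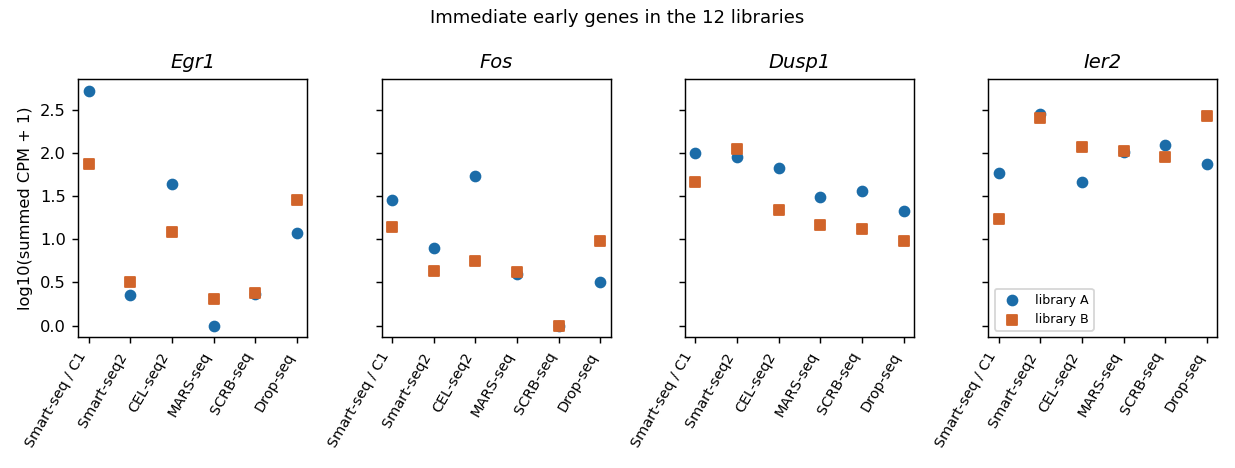
Level of Egr1, Fos, Dusp1 and Ier2 in the 12 libraries of the 6 methods, as log10(CPM + 1) of counts summed over cells, each point 1 library. For Egr1 the Smart-seq / C1 libraries lie at 533 and 74.7 CPM above all others, and for Ier2 they lie at 58.7 and 16.3 CPM among the lowest.

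Btg1 and Btg2 were higher here with little spread between A and B. Btg1 had 156 and 165 CPM here and 24.1 and 20.1 in Smart-seq2, a difference of 3.08 ± 0.43 (edgeR adjusted p = 0.00021), and 2.55 ± 0.27 from the 5 methods (edgeR adjusted p = 1e-06). Btg2 had 101 and 129 CPM against 45.1 and 46.0 in Smart-seq2, a difference of 1.56 ± 0.41 (edgeR adjusted p = 0.0145). Nfkbia had 41.8 and 37.1 CPM against 182 and 215 in Smart-seq2 and was lower by -1.43 ± 0.28 than the 5 methods (edgeR adjusted p = 0.00058).

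Covariation over all genes was weak, and few of the highest pairs of 1 library recurred in the other. Of 15969726 pairs of 5652 genes, 853 had a Spearman correlation above 0.5 in A, 1700 in B and 77 in both, and 0.0259% were above 0.3 in both. Of the 15970 highest pairs (0.1%) of each library, 278 were shared, 1.74% of each set, and across all pairs the A and B values had a Pearson correlation of 0.018. The 10 highest pairs of A (0.614 to 0.836) had a median of 0.193 in B, and the 10 highest of B (0.617 to 0.785) had a median of -0.015 in A. Pairs that held in both were Kifc2 with Foxh1 (0.836 and 0.785), neighbours 29 bases apart on chromosome 15, the ribosomal protein genes Rpl8 with Rps14 (0.724 and 0.610) and Rpl8 with Rps19 (0.614 and 0.527), and the imprinted noncoding RNAs Meg3 with Rian (0.634 and 0.384), which lie 32214 bases apart on chromosome 12. Whether strand was used in the counting is not given, and reads of neighbours as close as Kifc2 and Foxh1 may not be told apart. Pairs that did not return were Slc38a2 with Zfp57 (0.664 and 0.111) and Canx with the heterochromatin gene Cbx5 (0.654 and 0.132), both picked in A, and Rps14 with Mrpl15 (-0.315 and 0.632), picked in B.

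The strongest group was mitochondrial. The 7 mitochondrial protein genes measured had a mean correlation of 0.613 in A and 0.627 in B, and 21 of 21 pairs were above 0.3 in both. Their pairs ran from 0.396 to 0.780 in A and from 0.450 to 0.863 in B, as for mt-Nd1 with mt-Cytb (0.776 and 0.863). mt-Nd5 and mt-Nd6 lie on opposite strands and overlap, so their 0.780 and 0.781 may be shared reads. The next highest of the other 21 lists averaged 0.171 in A and 0.164 in B.

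The 14 measured genes of the unfolded protein response had a mean correlation of 0.171 in A and 0.139 in B, with 62 of 91 pairs (68.1%) above 0 in both against 29.4% of all pairs. Hsp90b1 correlated with Manf, a protein secreted under endoplasmic reticulum stress, at 0.517 in A and 0.433 in B, and Hspa5 with Manf at 0.402 and 0.412. Hspa5 and Hsp90b1 had 0.335 and 0.549, and the disulfide isomerase Pdia3 had 0.335 and 0.349 with Hsp90b1. Xbp1, a transcription factor of this response, stood apart with a mean over its pairs of 0.051 and 0.041. Among the 7 measured genes whose promoters held the stress element shown above, the 21 pairs had a mean of 0.213 in A and 0.203 in B. The 21 pairs of the 7 genes without a match had 0.143 and 0.117, and the 49 mixed pairs had 0.164 and 0.121. Of the 18 genes of the list 16 had a promoter to search, so genes without a match may include unsearched ones. The read levels of these groups were not compared, and the part of the element or of read level in their means was not tested. Hspa5 itself ranged from 134 to 2115 CPM per cell in A and from 46.4 to 1948 CPM in B, with an excess of 1.16 and 1.0. Between lists, the chaperones had a mean of -0.142 and -0.0626 with the mitochondrial transcripts and of 0.0552 and 0.0723 with cholesterol synthesis genes.

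Targets of p53, the factor of the DNA damage response, also covaried. Their 16 measured genes had a mean correlation of 0.155 in A and 0.113 in B, with 73 of 120 pairs (60.8%) above 0 in both and 11 above 0.3 in both. Mdm2, the ubiquitin ligase that degrades p53, correlated with Plk2, a kinase of the p53 response, at 0.546 and 0.478, with the DNA polymerase Polk at 0.484 and 0.492 and with Trp53inp1, a p53 cofactor, at 0.458 and 0.462. Btg2 and Plk2 had 0.407 and 0.515, whereas Btg2, a member of both lists, had 0.018 and 0.261 with Egr1 and -0.316 and -0.141 with Dusp1. Trp53 itself had a mean over its pairs of 0.026 and 0.041, and the apoptosis gene Bax had -0.015 and -0.063. Mdm2 was spread over a wider range in A, up to 2540 CPM, than in B, up to 780 CPM. Plk2 was read in 40 and 47 cells with an excess of 1.23 and 1.86.

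Cell cycle genes covaried more within a phase than between phases. The 53 G2/M genes had a mean correlation of 0.0753 in A and 0.121 in B over 1378 pairs, 56.2% of them above 0 in both. The mitotic kinase Cdk1 and the ubiquitin-conjugating enzyme Ube2c had 0.585 and 0.572, cyclin B1 (Ccnb1) and Ube2c had 0.456 and 0.485, and Ccnb1 and the kinase Plk1 had 0.481 and 0.438. The 40 G1/S genes had 0.0468 and 0.0709, with Slbp, which binds histone messages, and cyclin E2 (Ccne2) at 0.368 and 0.426, and Rrm2, a subunit of ribonucleotide reductase, and Ccne2 at 0.322 and 0.520. Between the phases the mean was -0.0056 and -0.0319. Top2a and Hmmr, both mitotic, varied beyond the trend, with an excess of 1.17 and 1.04 and of 1.13 and 1.05.

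**Figure D4:**
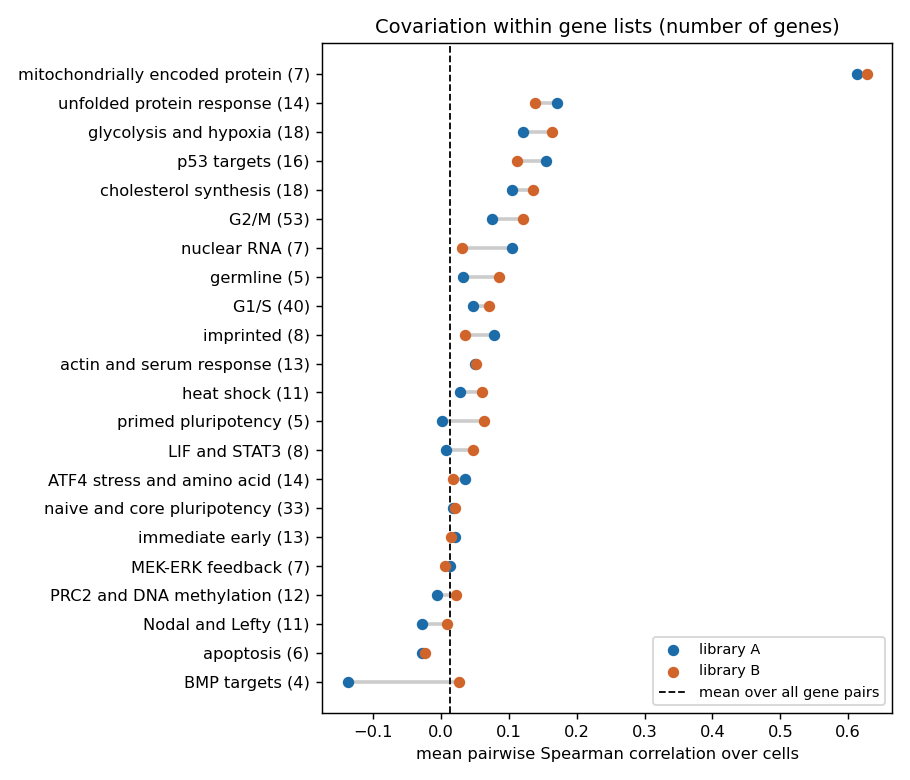
Mean pairwise Spearman correlation over cells within each gene list, in library A and library B, each point 1 library and the line the mean over all gene pairs (0.0119 and 0.0141). Mitochondrial transcripts stand at 0.613 and 0.627, the unfolded protein response, glycolysis, p53 target, cholesterol and G2/M lists lie between them and the line, and the immediate early list lies near the line at 0.0214 and 0.0153.

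Glycolysis and hypoxia genes had a mean of 0.121 and 0.164 over 18 genes, as for Aldoa with Ldha, both glycolytic enzymes (0.461 and 0.473). Eno1 and Eno1b, at 0.693 and 0.770, share sequence and are uncertain. Cholesterol synthesis genes had 0.105 and 0.136 over 18 genes. Naive and core pluripotency genes had only 0.0182 and 0.0214 over 33 genes, close to all pairs. Nanog with Dppa2 (0.345 and 0.481) was the 1 pair above 0.3 in both, and Dppa2 shares 33.7% of its 31-base sequences with other transcripts. Lin28a, an RNA-binding protein that blocks let-7, went against Klf2 (-0.349 and -0.277) and Sox2 (-0.261 and -0.322) in both libraries.

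Whether single genes varied more or less in Smart-seq / C1 cells than in the other methods was tested on cells thinned to 10000 counts. The test used limma on the excess variation of 2529 genes, 1 value per gene and library. Excess is taken from the trend of each library, so a difference shared by all genes of a method was not tested. Against the 5 other methods 1 gene was more variable (0.0395% of genes) and 2 were less variable (0.0791%), and 229 had an unadjusted p under 0.05 in either direction. The more variable gene was Canx, whose excess was 1.90 in A and 1.19 in B and between -0.42 and 0.39 in the 10 other libraries. The difference was 1.54 ± 0.26 (limma adjusted p = 0.00497), and without library A it was 1.18 with an adjusted p of 0.306. Canx was also expressed at 3841 and 5199 CPM here against 738 and 674 CPM in Smart-seq2. The less variable genes were mt-Rnr1, the small mitochondrial ribosomal RNA (-1.85 ± 0.35, limma adjusted p = 0.0125), and the metallothionein Mt2 (-1.28 ± 0.27, limma adjusted p = 0.0468), and for both some libraries of the other methods overlapped. mt-Rnr1 lost its call at 5000 counts (-1.40) and without Smart-seq / C1 B (-1.32) or Drop-seq A (-1.79), and Mt2 in 10 of 19 alternatives.

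Against Smart-seq2 no gene was more variable, while 125 had an unadjusted p under 0.05 in either direction, and 3 were less variable (0.119%). Actb, cytoplasmic actin, had an excess of 0.06 and 0.14 here against 1.92 and 1.95 in Smart-seq2 (-1.84 ± 0.32, limma adjusted p = 0.00813). Ifitm1, an interferon-induced membrane protein, had -0.70 and -0.17 against 1.24 and 1.51 (-1.82 ± 0.37, limma adjusted p = 0.0277). Lefty2 had 0.05 and 0.99 against 2.24 and 2.30 (-1.75 ± 0.36, limma adjusted p = 0.0277). For none of the 3 did the libraries of the methods overlap, and the share of all tested genes without overlap was not counted. The 3 were picked by this same contrast, so the gap is no separate support. Each lost its call without Smart-seq / C1 A, Smart-seq2 A or Smart-seq2 B, with differences from -1.95 to -1.28. Actb (-1.87) and Ifitm1 (-2.08) also lost it without Smart-seq / C1 B, and Ifitm1 (-0.82) and Lefty2 (-1.0) at 5000 counts. Of the immediate early genes only Mcl1 and Nfkbia were read deeply enough for this test. Neither was called, with an unadjusted p of 0.93 and 0.601 against the 5 methods, and Egr1, Fos, Dusp1 and Ier2 were not tested for variation between methods.

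Libraries A and B of Smart-seq / C1 differed in level more than the libraries of Smart-seq2 did. With 1 library on each side there is no test, and the values are summed CPM with a pseudocount of 1. Of 7280 genes at 20 CPM or more in either library, 17.7% were at least 2-fold higher in A and 8.71% at least 2-fold higher in B. In Smart-seq2 the shares were 0.381% and 0.24%. In the methods counted by UMI, whose counts are far fewer, they were 12.6% and 8.6% (CEL-seq2), 9.8% and 10.8% (MARS-seq), 7.13% and 8.31% (SCRB-seq) and 6.64% and 10.4% (Drop-seq). The median log2 ratio of A to B over all these genes was 0.16, which is the base against which the lists below are read. The median absolute log2 ratio of A to B was 0.60 here against 0.16 for Smart-seq2.

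The ratio of A to B went with base composition. Across genes its Spearman correlation with the GC content of the transcript was 0.412 here against 0.122 for Smart-seq2, and between -0.189 and 0.037 in the other methods. With the genes in 5 equal groups by GC content, the median log2 ratio was -0.26, -0.06, 0.11, 0.30 and 0.81 from the lowest group (median GC 40.6%) to the highest (56.2%). The spike-in share differed between the same libraries, and the part of either in the differences of single genes was not tested.

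**Figure D5:**
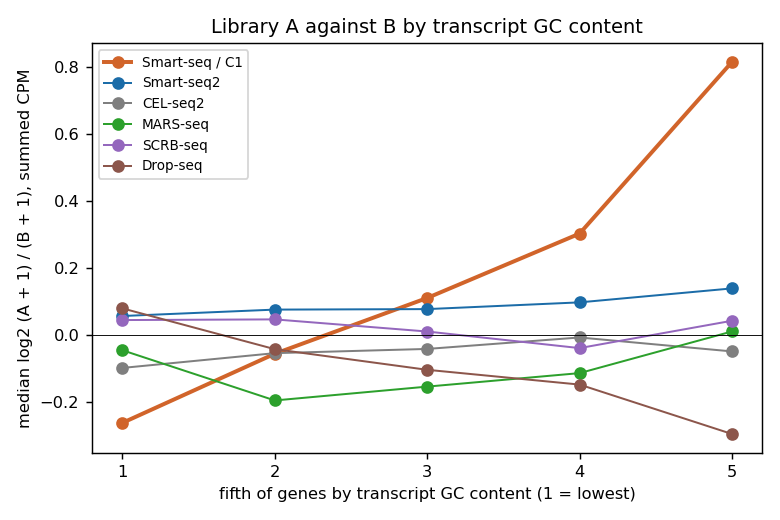
Median log2 ratio of library A to library B, from summed CPM plus 1, for genes in 5 equal groups by transcript GC content, 1 line per method. The Smart-seq / C1 line climbs from -0.26 to 0.81, while the other methods stay flatter.

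Genes of the LIF and STAT3 pathway were mostly higher in A. LIF signals through its receptor to STAT3, which drives Klf4, Tfcp2l1 and Socs3. Of 11 members at 20 CPM or more, 7 were at least 2-fold higher in A and none in B. The shares over all genes were 17.7% and 8.71%. The list's median log2 ratio was 1.08, against 0.25 in Smart-seq2. Stat3 itself had 115 CPM in A (exact Poisson 95% interval 110 to 120) and 28.6 CPM in B (26.2 to 31.3). Its targets Tfcp2l1 and Klf4 had 1840 CPM (1820 to 1859) against 870 CPM (857 to 884) and 199 against 94.1 CPM. Klf5 had 97.6 CPM (93.2 to 102) and 19.9 CPM (17.8 to 22.0). Socs3, the feedback inhibitor, was read in 38 cells of A and in none of B. Of the receptors, Il6st was higher in A by less than 2-fold (58.1 and 33.7 CPM) and Lifr was higher in B (105 and 124 CPM). Sgk1, a kinase gene of the list, had 668 and 886 CPM.

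Glycolytic genes went the other way. None of 21 was at least 2-fold higher in A and 8 were at least 2-fold higher in B, against 17.7% and 8.71% of all genes. Ldha, lactate dehydrogenase, had 691 CPM in A (679 to 703) and 1937 CPM in B (1916 to 1957), Aldoa had 1144 and 2359 CPM and Pgk1 had 29.5 and 66.9 CPM. Of the nuclear RNA list 5 of 8 were at least 2-fold higher in A, against 17.7% of all genes. Examples were Malat1 (5636 and 2576 CPM) and Neat1 (96.0 and 24.8 CPM). Of the p53 targets 5 of 20 were at least 2-fold higher in A and 1 at least 2-fold higher in B, against 17.7% and 8.71% of all genes. The cell cycle inhibitor Cdkn1a was higher in A, with 162 CPM in A (156 to 168) and 47.8 CPM in B (44.6 to 51.2). Of the naive and core genes 10 of 35 were at least 2-fold higher in A and 4 at least 2-fold higher in B. Over all genes the shares were 17.7% and 8.71%. The median log2 ratio of the list was 0.12, near that of all genes.

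Among genes with little shared sequence and at least 50 CPM in the higher library, the largest ratio towards A was that of Hes1, the Notch effector, with 52.6 CPM in A (49.3 to 56.0, read in 65 cells) and 2.21 CPM in B (1.57 to 3.02, in 24 cells), 23.8-fold higher in A. Gjb5, a gap junction protein, was 23.0-fold higher, the small heat shock protein Hspb8 20.7-fold and the lysosomal gene Laptm5 11.2-fold higher in A. In the other direction Lrrk2, a large kinase, had 985 reads in 33 cells of B and none in A, at least 345-fold higher in B with A set at 3 reads over the library. Nrcam, a neuronal adhesion molecule, was 31.9-fold higher in B, the tight junction gene Cldn6 19.95-fold and Soat1, which esterifies cholesterol, 9.61-fold. In Smart-seq2 the log2 ratio of A to B for these and the other 8 genes chosen by size lay between -0.31 and 0.32. Their GC content ran from 50.7% to 60.7% for the 8 higher in A and from 36.6% to 54.4% for the 8 higher in B.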

How the data were processed

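Per the submitters' processing notes, reads were processed with bcl2fastq and STAR 2.4.0 on mm10. The authors deposited whole-number counts per gene and cell (38924 mouse genes, 92 spike-ins), taken here as read counts for the Smart-seq methods, which carry no UMI; the counting tool and annotation are not given in the sources used here. Gene identifiers were matched to GENCODE M21 (37607 matched). All 130 cells were kept, without a doublet call.

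CPM, squared CV, the lowess trend (span 0.5, statsmodels 0.14.6) and Spearman correlations were computed within each library in Python 3.11.15. Because cells are not replicates, tests ran over 12 libraries, 2 per method: limma 3.58.1 (robust) on excess variation in cells thinned to 10000 counts with a mean of at least 0.2, and edgeR 4.0.16 (TMM, filterByExpr, robust quasi-likelihood) on summed counts, in R 4.3.3, at an adjusted p of 0.05. DESeq2 1.42.0 was an alternative. Both tests were tested on simulated data. Promoters came from RefSeq.

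Named genes were the 20 with the largest excess in both libraries, immediate early genes reaching 10 CPM, up to 3 genes per list discussed, the 10 highest pairs per library and the 8 largest A to B ratios each way; pair partners within lists and other examples were chosen after their values were seen. Members and lists were chosen with earlier results of these data known.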

Additional observations from a re-analysis of the deposited data

How the results depend on the processing

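Cell-level results were descriptions of 2 libraries, and depth limits them: rare transcripts such as Fos and Junb are read in few cells. The number of genes in the top 5% of both libraries was 48 at a minimum of 50 CPM. The mean correlation of the immediate early genes, 0.0184 over both libraries, was -0.0011 after thinning to 50000 reads, 0.0075 given reads, genes and spike-in share, and 0.0329 at a minimum of 50 CPM and 50% of cells. Genes more variable than in the 5 other methods numbered 2 at a minimum mean of 0.5 and 4 with mouse genes alone thinned, an alternative chosen after seeing the data; none was less variable at 5000 counts. Against Smart-seq2, 1 was more variable at 5000 counts, 1 at a span of 0.8 and 2 with mouse genes alone thinned, where 7 were less variable. limma on the mean of log2(CPM + 1) called 2132 genes higher than the 5 methods, and 258 higher and 1893 lower than Smart-seq2, where edgeR called 1250 and 973; that split moved towards lower calls.

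The letters A and B pair the methods by name only. Deviations of same-lettered libraries correlated over 0.1 in 0 of 15 pairs of methods for variation and in 1 of 15 for expression. With the letter as a replicate block, 2 genes were more variable and 3 less variable than in the 5 methods, and 0 and 3 than in Smart-seq2; 3148 genes were higher and 2937 lower than in the 5 methods, and 1128 and 946 than in Smart-seq2.

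Leaving out 1 library at a time gave 1 to 4 more variable and 0 to 4 less variable genes against the 5 methods, with 4 and 1 without Smart-seq / C1 A, 2 and 4 without MARS-seq B, 1 less variable without MARS-seq A, SCRB-seq A or Drop-seq B, and 0 less variable without Smart-seq / C1 B or Drop-seq A. Against Smart-seq2 it gave 0 to 1 and 0 to 4, with 0 less variable without Smart-seq / C1 A or Smart-seq2 B. Expression calls ranged from 2369 to 4093 higher and 2345 to 2833 lower against the 5 methods. Against Smart-seq2 they ranged from 259 to 1835 higher and 348 to 1470 lower, with 261 and 348 without Smart-seq2 A, 259 and 361 without Smart-seq2 B and 1835 and 1470 without Smart-seq / C1 A, where the lone library is taken to vary like the others.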

Other observations

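A few cells of library B expressed genes of the 2-cell-like state, a rare and passing state of embryonic stem cells marked by the Zscan4 cluster. Over the 14 genes of that list, the well at plate row A, column 7 held 22021 CPM from 13 genes, with 1598 reads of Zscan4d. The well at row B, column 4 held 5156 CPM from 12 genes, including 509 reads of Arg2, and the well at row B, column 1 held 1893 CPM from 5 genes. These 3 cells carried 92.9% of the 5262 reads of the list in B. In all, 40 of 61 B cells had a read, with a median of 9.32 CPM, and 10 had over 100 CPM.

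Library A had 65 reads of the list in 10 of 69 cells, with a median of 0. Its highest cell, at 119 CPM, owed this to 35 reads of Arg2 alone, and the next held 13 reads of Zscan4c and 2 of Zscan4d. The cell with the highest level had 7342 genes with a read and a spike-in share of 3.40%, both near the median of B, but its 137460 mouse gene reads were fewer than 0.5 times the median of 311984. Reads can be split among the Zscan4 genes, which share most of their sequence, so values of single Zscan4 genes are uncertain. How many such cells each culture held was not tested, since B is 1 library.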
